A study of Mus musculus with 36 samples.

Results

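Complement genes were followed through mouse heart development and adult life with 11 probe sets of an oligonucleotide array. They were chosen by gene symbol from a list of 8: C3, C4b, C1qa, C1qb, C1qc, C7, Serping1 and Cd55. Every probe set whose annotated symbol was on the list was taken, whatever its values. The list itself was chosen with earlier results of these data known. Of these 8 genes, 7 were found, out of 20701 gene IDs on the array, and their 11 probe sets are among 45101 in all. C7, a component of the membrane attack complex, was not analysed here. C1qb and Cd55 are each read by 3 probe sets and the other 5 genes by 1, and a gene is described by its brightest probe set on average, with the others given beside it.

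The study profiled hearts of OF1 mice, an outbred strain, on 36 arrays in 12 groups of 3. The embryonic groups cover every day between E10.5 and E19.5, and the adult groups are young adult, at 10 weeks, and old adult. The old animals were 14 months old by the series' description and 10 months by the methods. All 3 arrays of E10.5 and of E11.5 are labelled mixed sex, while later groups hold 1 female, 1 male and 1 mixed array, so that spread within those groups includes any effect of sex. No group carries a genetic change or a treatment. Values are log2 intensities, so that 1 unit is a 2-fold difference, and a group mean of 5 served as the limit of expression. The extraction text of the labels speaks of liver, whereas titles and methods speak of heart.

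Complement is a cascade of plasma and tissue proteins that marks microbes, immune complexes and dying cells for removal. The C1q molecule, assembled from the chains encoded by C1qa, C1qb and C1qc, recognizes the target, after which the attached proteases C1r and C1s cleave C4 and C2, and the resulting enzyme cleaves C3, the point where all routes of activation meet. Serping1 encodes the C1 inhibitor, which blocks C1r and C1s, and Cd55 encodes a membrane protein that speeds the decay of the C3-cleaving enzymes on the body's own cells. In adult tissues macrophages are a main source of C1q, and hepatocytes, the main source of plasma C3 and C4, share the synthesis of these with macrophages, fibroblasts and other stromal cells.

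The genes lie at separate places except for the C1q chains, which are neighbours on mouse chromosome 4 (GRCm38.p6, RefSeq): C1qb at chr4:136880126-136886200, C1qc at chr4:136889801-136892936 and C1qa at chr4:136895916-136898844. C4b (chr17:34728139-34743902) and C3 (chr17:57203967-57228136) share chromosome 17, Serping1 lies at chr2:84765360-84775444 and Cd55 at chr1:130429798-130465009. C4b has a near-identical neighbour, C4a, which has no probe set of its own in the annotation, so the C4b signal may hold RNA of both. RefSeq start regions were at hand for 5 of the 8 genes, of which 4 were measured. Those of C1qb, C1qc and C3 are shown because these genes moved together between embryonic and adult heart. Each runs 5′ to 3′ on the minus strand, from 250 bases before the listed start to 50 bases after it, at chr4:136886151-136886450 for C1qb, chr4:136892865-136893164 for C1qc and chr17:57228087-57228386 for C3, with matches to the 5 searched motifs in capitals.
C1qb: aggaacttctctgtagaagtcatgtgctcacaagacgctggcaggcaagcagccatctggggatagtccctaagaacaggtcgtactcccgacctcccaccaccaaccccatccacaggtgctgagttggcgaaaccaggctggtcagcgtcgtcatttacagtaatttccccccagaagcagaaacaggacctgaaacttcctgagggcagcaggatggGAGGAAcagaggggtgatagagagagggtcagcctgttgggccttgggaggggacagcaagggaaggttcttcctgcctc
C1qc: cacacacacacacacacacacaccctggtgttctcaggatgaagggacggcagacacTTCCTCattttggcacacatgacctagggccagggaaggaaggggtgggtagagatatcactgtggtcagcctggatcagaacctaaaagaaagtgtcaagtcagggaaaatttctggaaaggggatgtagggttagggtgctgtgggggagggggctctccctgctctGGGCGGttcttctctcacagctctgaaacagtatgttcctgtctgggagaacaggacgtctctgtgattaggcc
C3: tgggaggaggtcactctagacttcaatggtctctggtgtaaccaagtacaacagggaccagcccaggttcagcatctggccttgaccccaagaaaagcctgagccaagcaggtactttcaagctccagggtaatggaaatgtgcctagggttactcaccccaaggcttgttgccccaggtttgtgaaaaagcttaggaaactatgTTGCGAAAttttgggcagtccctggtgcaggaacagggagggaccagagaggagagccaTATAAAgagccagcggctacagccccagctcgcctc

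The motifs were searched on both strands: GAGGAA, a core bound by ETS factors such as PU.1, TTGCGNAA, bound by C/EBP factors, TTCNNNGAA, bound by STAT factors, the TATA box TATAAA and the GC box GGGCGG. The first of these stood in the C1qb region, its first base 30 bases before the listed start, and on the opposite strand of the C1qc region. Of all 32851 start regions of the same length, 28.28% held it. The C3 region held TTGCGNAA, found in 0.80% of all regions, and TATAAA (13.62%), the latter with its first base 14 bases after the listed start, and the C1qc region held GGGCGG (35.66%). TTCNNNGAA (8.30% of all regions) was in none of the 3. These matches describe the letters of the reference and were not set against any binding data.

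Several features of the whole set of arrays bear on the results. All 6 measured cardiomyocyte markers were above 5 in every group, with summed linear intensities over all arrays between 23460 (at E13.5) and 41440 (in old adults). The median level of an array ranged from 4.0 to 4.2. The hybridization controls, bacterial RNAs spiked into the samples as a measure of array handling, moved with stage: from 9.68 to 10.35 at E10.5, from 12.03 to 12.43 in young adults and from 11.16 to 11.56 in old adults. This level was used as a covariate in an alternative fit, and where it changed a call of a member described here the value is given beside the result. Since the E10.5 and young adult ranges did not overlap, that fit separates stage from control level only in part. A call lost in it cannot be assigned to either. In whole-heart RNA, more cells of a type and more RNA per cell cannot be told apart.

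The adult heart had far more RNA of 6 of the 7 complement genes than the embryonic heart. Against young adult, C3, C4b, C1qa, C1qb, C1qc and Serping1 were called lower at each of the 10 embryonic stages, and Cd55 at none. A call required an adjusted p under 1e-05 in limma, a log2 difference beyond 2 in size and at least 1 group with a mean over 5. No mean of Cd55 was over 5, so it could not be called. These 6 of 7 members, from a list chosen with earlier results known, stand beside 2.10% of all probe sets called lower at E10.5. That share is over all probe sets, including those with no mean over 5, which could not be called. On the following days the share was 1.84%, 1.75%, 1.66%, 1.52%, 1.58%, 1.25%, 1.20%, 1.01% and, at E19.5, 0.634%. The median log2 difference of the 7 members was -4.35 at E10.5 and -3.32 at E19.5, where the median of all probe sets was -0.19 and -0.04. Among probe sets with a group mean above 5 the median had the other sign, at 0.41 and 0.13. For the same 6 genes every one of the 30 embryonic arrays lay below every one of the 6 adult arrays, which held for 4.18% of all probe sets. All 10 embryonic comparisons share the 3 young adult arrays.

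**Figure D1:**
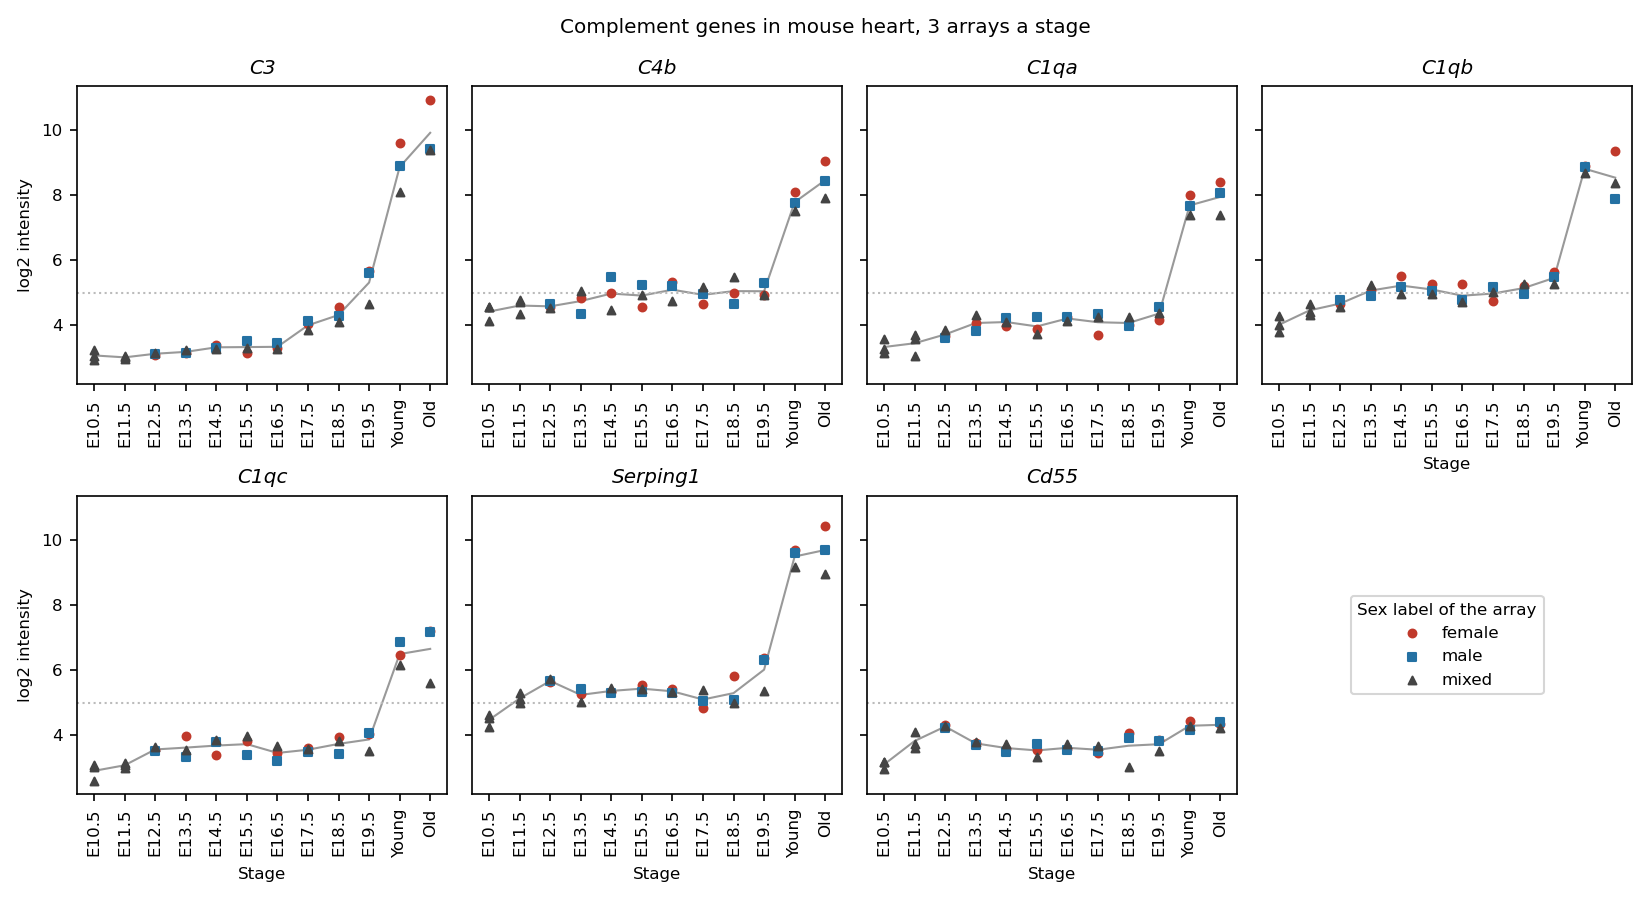
Level of 7 complement genes (log2 intensity, y axis) on each of 36 arrays over 12 stages (x axis), brightest probe set of each gene, points by sex label, grey line through the stage means, dotted line at the expression limit of 5. In 6 genes all embryonic points lie below all adult points, and Cd55 stays under 5 at every stage.

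The C1q chains, which form the recognition unit, rose together. C1qa read 3.26, 3.15 and 3.59 on the 3 E10.5 arrays, 4.15, 4.55 and 4.39 on the female, male and mixed E19.5 arrays, and 8.0, 7.66 and 7.41 on the young adult arrays in the same order. The embryonic and adult arrays did not overlap: the highest embryonic value, 4.55, was 2.84 log2 units under the lowest adult value. The difference from young adult was -4.35 at E10.5 (SE 0.21, limma adjusted p = 2.89e-17) and -3.32 at E19.5 (SE 0.21, adjusted p = 1.26e-13), so that the young adult level was 20.4 and 10.0 times higher. Every embryonic mean of C1qa was under 5, near the low end of the scale, where arrays understate differences.

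C1qb read 4.0, 3.78 and 4.27 at E10.5, against 8.89, 8.88 and 8.67 on the young adult arrays, and again no embryonic array reached an adult one. It had a mean of 4.02 ± 0.25 (SD, n = 3) at E10.5 and of 5.46 ± 0.19 at E19.5, and of 8.81 ± 0.12 in young adults. The difference from young adult was -4.80 (SE 0.22, adjusted p = 1.1e-17) and -3.36 (SE 0.22, adjusted p = 3.58e-13). On this probe set, 1434366_x_at, the mean passed the limit of 5 before birth, at 5.07 at E13.5 and 5.22 at E14.5, whereas on the other C1qb probe sets no embryonic mean was above 3.95. Those other probe sets, 1437726_x_at and 1417063_at, were called at both ends as well: the log2 difference from young adult was -5.38 and -4.06 at E10.5, and -3.49 and -3.13 at E19.5. The suffix x_at marks probe sets with probes shared between transcripts, and the brightest is one of them, whereas 1417063_at is not.

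C1qc read 2.60, 3.08 and 3.03 at E10.5, 4.02, 4.06 and 3.53 at E19.5 (female, male, mixed) and 6.47, 6.85 and 6.16 in young adults. The young adult level was 12.0 times that of E10.5 (log2 difference -3.59, SE 0.27, adjusted p = 8.3e-13) and 6.16 times that of E19.5 (-2.62, SE 0.27, adjusted p = 3.83e-09). The highest embryonic array lay 1.54 below the lowest adult one, the smallest gap among the 6 genes.

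C4b, whose product is cleaved by the C1 complex, stayed within a narrow band before birth. Its mean was 4.42 ± 0.25 at E10.5 and stayed between 4.59 and 5.10 from E11.5 to E19.5. The E19.5 arrays read 4.93 (female), 5.30 (male) and 4.92 (mixed), and the young adult arrays 8.09, 7.76 and 7.5. The young adult level was 10.3 times that of E10.5 (log2 difference -3.36, SE 0.26, adjusted p = 2.04e-12) and 6.66 times that of E19.5 (-2.74, SE 0.26, adjusted p = 9.59e-10). With the hybridization control level as a covariate the E10.5 difference was -2.26 (adjusted p = 0.000295) and was no longer called. The same held at E11.5 (-2.33, adjusted p = 1.08e-05) and E12.5 (-2.26, adjusted p = 5.71e-05).

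C3, the central component, had the widest range of the 7 genes. From E10.5 to E16.5 its mean stayed between 3.02 and 3.34. It then read 4.04, 4.12 and 3.85 at E17.5, 4.56, 4.30 and 4.09 at E18.5 and 5.68, 5.61 and 4.67 at E19.5 (female, male, mixed). No array of E17.5 or later overlapped with an array of E16.5 or earlier. The share of all probe sets without overlap at this cut was not counted.

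In young adults C3 read 9.60, 8.91 and 8.09, and in old adults 10.94, 9.42 and 9.39, again female, male and mixed. The young adult level was 55.3 times that of E10.5 (log2 difference -5.79, SE 0.29, adjusted p = 7.02e-17) and 11.7 times that of E19.5 (-3.55, SE 0.29, adjusted p = 4.11e-11). Fitted on the 6 arrays of E19.5 and young adult alone, the latter difference had an adjusted p of 2.5e-05 and missed the limit of 1e-05.

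Serping1, the inhibitor of the first proteases of the cascade, was higher at E12.5 than at E10.5 and higher again in the adult. Its E10.5 arrays read 4.54, 4.62 and 4.25, its E11.5 arrays 5.0, 5.28 and 5.10, and its E12.5 arrays 5.63, 5.66 and 5.72, with no overlap between these days. How many of all probe sets were free of overlap in this way was not counted. The difference between E12.5 and E10.5, a comparison added after these values were seen, was 1.20 (SE 0.25, adjusted p = 0.0042). Its mean then lay between 5.10 and 5.43 up to E18.5, and its arrays read 6.37 (female), 6.31 (male) and 5.36 (mixed) at E19.5. In young adults it read 9.70, 9.61 and 9.16, which is 32.5 times the level of E10.5 (log2 difference -5.02, SE 0.25, adjusted p = 7.73e-17) and 11.1 times that of E19.5 (-3.48, SE 0.25, adjusted p = 2.89e-12).

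Cd55, the membrane regulator, followed another course at low levels, with every mean under 5. Its E10.5 arrays read 3.18, 3.17 and 2.96, its E11.5 arrays 3.74, 4.11 and 3.62, and its E12.5 arrays 4.31, 4.22 and 4.27. By E14.5 its mean was 3.61 ± 0.13, and the adult means were 4.29 ± 0.14 (young) and 4.32 ± 0.10 (old). Against young adult it was lower at E10.5 (log2 difference -1.19, SE 0.17, adjusted p = 8.18e-07) and at E19.5 (-0.57, SE 0.17, adjusted p = 0.0132), where 35.9% and 13.6% of all probe sets passed 0.05 in that direction, but at E12.5 the difference was -0.02 (SE 0.17, adjusted p = 0.917). This absence of a difference at E12.5 rests on 1 of 3 probe sets. The others, 1443906_at (-0.75, adjusted p = 0.0251) and 1460242_at (-0.29, adjusted p = 0.0331), were lower there than in young adult.

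The E12.5 level of Cd55 was above that of E19.5 (log2 difference 0.54, SE 0.17, adjusted p = 0.0184, beside 15.8% of all probe sets), and no other member passed 0.05 above E19.5 at any embryonic stage. In comparisons added after this peak was seen, Cd55 was higher at E12.5 than at E10.5 (1.17, SE 0.17, adjusted p = 5.68e-05) and than at E14.5 (0.66, SE 0.17, adjusted p = 0.0161). Of all probe sets, 1.74% and 4.49% were higher in these comparisons, and of the members Serping1 and Cd55 in the first and Cd55 in the second. The probe set 1443906_at had means of 2.27, 3.01 and 2.36 on these days (adjusted p = 0.165 and 0.169), but differed little between E12.5 and E19.5 (0.12, adjusted p = 0.756). The third, 1460242_at, stayed between 2.11 and 2.81. With the hybridization control level as a covariate the peak was smaller: E12.5 was above E19.5 by 0.31 (adjusted p = 0.357) and above E14.5 by 0.48 (adjusted p = 0.165), and neither passed.

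**Figure D2:**
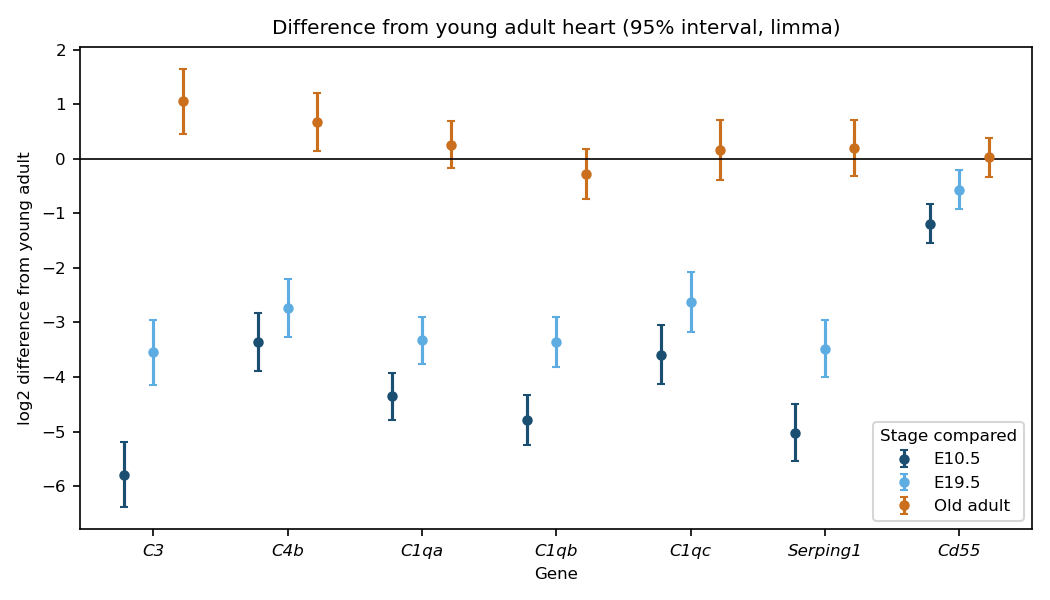
Log2 difference from young adult heart (y axis) of 7 complement genes (x axis) for E10.5, E19.5 and old adult, with 95% intervals from limma, 3 arrays a group. At E10.5 the differences run from -5.79 (C3) to -1.19 (Cd55), and in old adults the intervals of C3 and C4b alone lie above 0.

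Within the embryonic period the members took different courses. All 7 were lower at E10.5 than at E19.5 at an adjusted p under 0.05, a limit that 23.7% of all probe sets passed in that direction. C3 alone was called under the study's limits (log2 difference -2.24, SE 0.29, adjusted p = 3.02e-07), beside 0.698% of probe sets. Serping1 (-1.54, adjusted p = 1.2e-05) and C1qb (-1.44, adjusted p = 5.03e-06) followed, and C4b was close to the limit of 0.05 (-0.63, adjusted p = 0.0496). With sex label as a block, C4b had an adjusted p of 0.103. With the hybridization control level as a covariate the difference was -0.01 for C4b (adjusted p = 0.987) and -0.58 for C1qa (adjusted p = 0.138), so that neither passed 0.05, and C3 was not called with it (log2 difference -2.41, adjusted p = 3.08e-05) or in a fit of the 6 arrays alone (adjusted p = 0.000218).

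A straight line through the 30 embryonic arrays rose in 6 of the 7 members, all but Cd55, beside 42.1% of all probe sets. The slope was 0.21 log2 units a day for C3 (SE 0.03, adjusted p = 2.53e-08), 0.11 for C1qb, 0.10 for C1qa and between 0.07 and 0.08 for C1qc, Serping1 and C4b. A straight line averages over the period, whereas the C3 mean stayed between 3.02 and 3.34 up to E16.5 and rose after it. For the brightest probe set of Cd55 the slope was 0.00 (SE 0.02, adjusted p = 0.895). With the hybridization control level as a covariate 4 members passed, C3, C1qb, C1qc and Serping1, while the slope was 0.04 for C1qa (SE 0.02, adjusted p = 0.133) and 0.01 for C4b (SE 0.02, adjusted p = 0.816).

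From 1 day to the next, few steps passed in the model, whose spread is pooled over all 12 groups, the adult ones included. For C3 the SD was 0.75 in young and 0.89 in old adults, against 0.10 at E16.5 and 0.14 at E17.5. Its step from E16.5 to E17.5 did not pass, though the arrays (3.28 to 3.45 and 3.85 to 4.12) did not overlap, which was not counted over all probe sets. For Cd55 the fall from E12.5 (4.22 to 4.31) to E13.5 (3.69 to 3.78) did not pass either. Of all members and days, the rise of Cd55 from E10.5 to E11.5 alone passed an adjusted p of 0.05 (0.72, SE 0.17, adjusted p = 0.0207), in a step where 0.885% of probe sets rose. The other Cd55 probe sets did not pass, at 0.05 for 1443906_at (adjusted p = 0.969) and 0.24 for 1460242_at (adjusted p = 0.313). The rise of the brightest probe set missed the limit without E10.5 array 1, without E10.5 array 2 or without E11.5 array 2. The last embryonic step of C3, E18.5 minus E19.5, was -1.0 (SE 0.29, adjusted p = 0.0878) and that of Serping1 -0.72 (SE 0.25, adjusted p = 0.185). Without the mixed E19.5 array, which read lowest of its group for both genes, both steps passed. With the hybridization control level as a covariate that of C3 passed (-1.01, SE 0.29, adjusted p = 0.0443). No other step of a member passed 0.05, and over the 9 steps between 0 and 2.53% of all probe sets passed in either direction.

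The step after E19.5 was set against the whole rise from E10.5 to E19.5 in the same model. It was larger for C1qa (by 2.30 log2 units, SE 0.37, adjusted p = 2.42e-05), C4b (2.11, SE 0.45, adjusted p = 0.000822), Serping1 (1.93, SE 0.44, adjusted p = 0.00152), C1qb (1.91, SE 0.39, adjusted p = 0.000463) and C1qc (1.66, SE 0.46, adjusted p = 0.00852). These are 5 of 7 members, beside 11.8% of all probe sets in that direction. For C3 the value was 1.31 (SE 0.51, adjusted p = 0.0586) and for Cd55 -0.06 (SE 0.30, adjusted p = 0.922). With sex label as a block C3 passed as well, and without the mixed E19.5 array C4b, C1qa and C1qb passed and C1qc and Serping1 did not. All 5 genes had an E10.5 mean under 5, and C1qa and C1qc an E19.5 mean under 5 as well. Differences are understated at such levels. At E10.5 this lowers the embryonic rise and raises the value of this comparison, while at E19.5 it also lowers the step after E19.5. The net effect was not determined. No stage between E19.5 and 10 weeks was sampled, so the time of the rise within that interval is not resolved.

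The adult ages differed little. C3 was 2.07 times higher in old adults (log2 difference 1.05, SE 0.29, adjusted p = 0.0252), the single member of 7 past 0.05, beside 3.83% of all probe sets that rose. The groups overlapped: the young female array (9.60) was above the old male (9.42) and old mixed (9.39) arrays, while within each sex label the old array was higher, by 1.34 (female), 0.51 (male) and 1.30 (mixed). The adjusted p rose above 0.05 without the young male array (0.0593), the young mixed array (0.195) or the old female array (0.205, log2 difference 0.54). It did so as well after quantile renormalization (0.0653), with the hybridization control level as a covariate (0.099) and in a fit of the 6 adult arrays alone (0.332). The SE of the main model is pooled over all 12 groups. The SD of C3 was 0.75 in young and 0.89 in old adults, above its SD at every embryonic stage (at most 0.56, at E19.5). The old female array, which carried the highest C3 level, also read highest in 7 markers of mesothelium and epicardium, the outer lining of the heart. Their summed linear intensity was 594 on it against 164 to 317 on the other adult arrays, and its part in the C3 result was not tested. No member was called under the study's limits, which 0.00665% of probe sets met in either direction.

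C4b was higher in old adults in all 3 sex labels, at 9.04, 8.44 and 7.91 against 8.09, 7.76 and 7.5, with a log2 difference of 0.68 (SE 0.26, adjusted p = 0.108). Without the old mixed array it was 0.95 (adjusted p = 0.0383), and with the control level as a covariate 1.07 (adjusted p = 0.0186). On the old female, male and mixed arrays C1qa read 8.40, 8.06 and 7.39, and C1qc 7.20, 7.16 and 5.60. Serping1 read 10.43, 9.69 and 8.96, and C1qb 9.35, 7.89 and 8.39. For each of these genes the old arrays spanned a wider range than the young ones and overlapped with them. The 95% intervals of these members and of Cd55 included 0: C1qa 0.26 (-0.17 to 0.69), Serping1 0.20 (-0.32 to 0.72), C1qc 0.16 (-0.39 to 0.70), Cd55 0.03 (-0.32 to 0.38) and C1qb -0.27 (-0.73 to 0.18). The probe sets of C1qb disagreed in sign here, with 0.14 and 0.22 for 1437726_x_at and 1417063_at, and without the old female array the brightest one was lower in old adults (-0.68, adjusted p = 0.028).

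**Figure D3:**
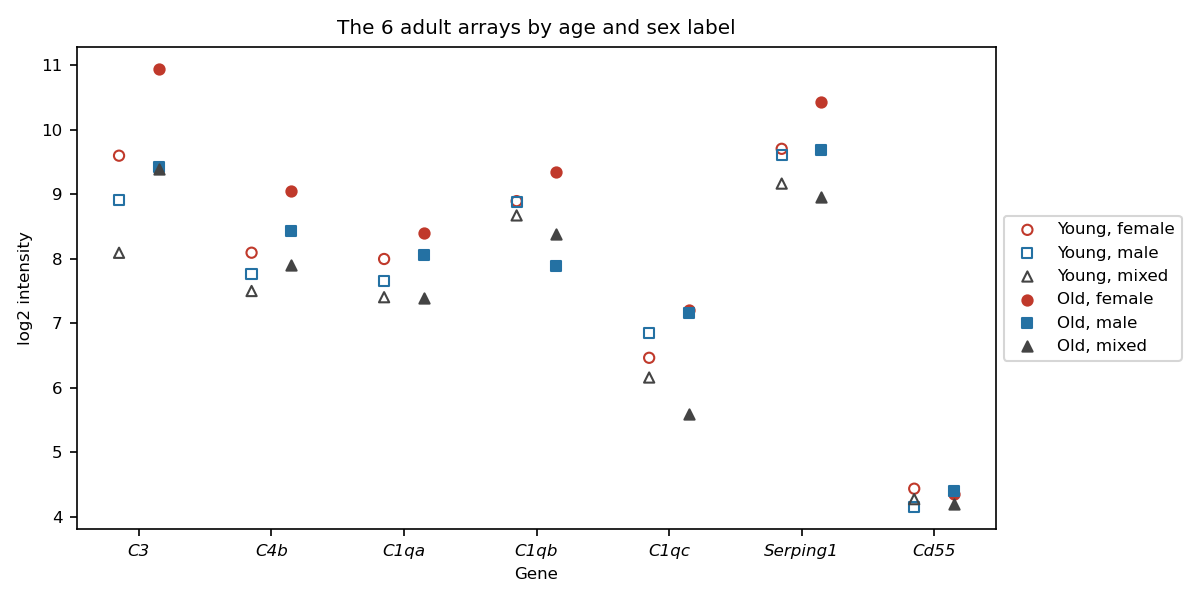
Level of 7 complement genes (log2 intensity, y axis) on the 6 adult arrays, open symbols young and filled symbols old, shape and colour by sex label. The female array is the highest of its age for 6 genes at each age, and the mixed array the lowest for 6, an order not counted over all probe sets.

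The 3 arrays of an adult group were ordered alike in most members. In young adults the mixed array was the lowest for 6 of 7 members and the female array the highest for 6, and the same counts were found in old adults. The share of all probe sets with this order was not counted, so it is not shown to be particular to these genes. The exceptions in young adults were Cd55, lowest on the male array, and C1qc, highest on it. In old adults C1qb was lowest and Cd55 highest on the male array. The 12 fibroblast markers fell in the same order at both ages, with summed linear intensities of 25488, 19841 and 18341 on the young female, male and mixed arrays and 23622, 20053 and 13709 on the old ones. The 15 macrophage markers followed it in old adults (3285, 2476 and 2318) but not in young adults (2835, 2052 and 2598), and the 12 genes of the interferon gamma response were highest on the mixed array at both ages (2634 and 4643). The old mixed array also stood apart in other transcripts: its 4 neutrophil markers summed to a linear intensity of 265 against 44.2 to 110 on the other adult arrays, and its 6 erythroid markers to 551 against 102 to 178. The part of these transcripts in the levels of the members was not tested. Without both mixed adult arrays the 6 members were still called at E10.5 and E19.5, and C3 in old adults had a log2 difference of 0.93 (adjusted p = 0.0835). This left-out pair was chosen after the values were seen.

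Male and female hearts were compared in 9 pairs of arrays, 1 pair for each stage from E13.5 on, with stage as a block. None of the 7 members passed an adjusted p of 0.05 in limma, a limit met by 0.0488% of probe sets, and 1 had an unadjusted p under 0.05. That was C1qb, with a male minus female log2 difference of -0.30 (SE 0.13, unadjusted p = 0.039, adjusted p = 0.621). For C3 the difference was -0.23 (95% interval -0.54 to 0.08).

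The difference of C3 between the sexes changed with maturity, on few pairs. In the 7 embryonic pairs male minus female lay between -0.26 and 0.36, in young adults it was -0.69 and in old adults -1.52. The interaction of sex label with maturity was -1.12 (SE 0.22, adjusted p = 0.0319), in a test that 0.244% of probe sets passed in that direction. The old pair differed as well in the mesothelium and epicardium markers, in sum (594 female, 239 male) and in mean log2 level (6.012 and 4.775). In the young pair the sum was lower in the female (274 female, 317 male) and the mean log2 level higher (4.940 and 4.843). The part of these markers in the C3 difference was not tested. The interaction rests on 2 mature pairs: without the old pair it was -0.71 (adjusted p = 0.122) and without the young pair -1.54 (adjusted p = 0.00139). It was -1.21 (adjusted p = 0.0559) after median centring and -0.93 (adjusted p = 0.0634) with the control level as a covariate, and it stayed past 0.05 in 6 of the 18 fits that left out 1 array. The interactions of the other 6 members had adjusted p values from 0.267 to 0.844.

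Of 44 further genes of the cascade, listed by their place in it from general knowledge, 36 had a probe set. At E10.5, 6 of these were called lower than in young adult and 0 higher, and at E19.5 2 lower (C1s1 and Cfd) and 0 higher, beside 2.10% and 0.634% of all probe sets called lower. Only 16 of the 36 had a mean above 5 in some group, which a call requires, so the others could not be called. With the hybridization control level as a covariate the E10.5 calls of C1s1 and Clu held. Those of Cfd, Fcna, Vsig4 and Vtn were lost (adjusted p from 7.12e-05 to 0.00668). Their log2 differences were then -4.67, -2.08, -2.05 and -2.11, with SEs of 0.91, 0.38, 0.57 and 0.50. The median log2 difference of the 36 genes without the covariate was -0.72 and -0.29. These genes share the young adult arrays with the members.

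Beside C1q, the classical pathway was represented by C1s1, the protease that cleaves C4 and C2, and by C2. C1s1 had means of 2.75 at E10.5 and 3.64 at E19.5 against 6.16 for young adults (log2 difference -3.41, SE 0.21, adjusted p = 1.07e-14 at E10.5, and -2.51 at E19.5, adjusted p = 6.81e-11). C1s1 was higher again in old adults, at 7.59 (1.43, SE 0.21, adjusted p = 0.000109). For C2 the levels were 4.14, 4.51, 5.13 and 5.37, and it was past 0.05 at E10.5 (-0.99, adjusted p = 0.00112, and 0.398 with the covariate) without being called.

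Of the lectin pathway, which recognizes sugars, 8 genes were measured, 4 of them with a mean above 5 in some group. Fcna, which encodes a ficolin of macrophages, was called lower at E10.5 (log2 difference -2.21, SE 0.19, adjusted p = 2.59e-11) and was lower in old than in young adults (-0.77, SE 0.19, adjusted p = 0.0137). Colec11, a collectin gene, had a mean of 5.0 at E13.5 and of 6.85 at E15.5, and was higher in old adults (0.87, SE 0.24, adjusted p = 0.0249). Colec10 was lower in old adults (-0.55, SE 0.16, adjusted p = 0.0355) at means under 3, and Masp1 and Masp2, the protease genes of the pathway, were not called.

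Of the alternative pathway, Cfd, which encodes factor D, a protease made by fat cells, stood between 2.82 and 3.30 at every embryonic stage and at 7.53 in young adults. The log2 difference was -4.69 at E10.5 (SE 0.46, adjusted p = 4.35e-10) and -4.40 at E19.5 (SE 0.46, adjusted p = 7.51e-09), and in old adults -1.11 (SE 0.46, adjusted p = 0.142). Cfp, the properdin gene, was at 4.98 in young adults and, with no mean above 5, could not be called. All 6 measured genes of the terminal complex, Hc (C5), C6, C8a, C8b, C8g and C9, had means under 5 in every group, so none could be called.

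Among 8 receptor genes, 3 had a mean above 5 in some group. Of these Vsig4, a macrophage receptor for C3 fragments, was called lower at E10.5 (log2 difference -2.36, SE 0.29, adjusted p = 3.82e-08), with 4.91 in young and 5.59 in old adults. In old adults Itgb2, the integrin chain shared by complement receptors 3 and 4, was higher (0.80, SE 0.20, adjusted p = 0.0147) and C5ar1, the receptor of the C5a fragment, was lower (-0.81, SE 0.17, adjusted p = 0.00419), the latter at means under 5. 

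Among 10 regulator genes, 6 had a mean above 5 in some group, and 2 were called lower at E10.5 and 0 at E19.5. Clu, encoding clusterin, an inhibitor of the terminal complex, was called lower at E10.5 (-2.37, SE 0.18, adjusted p = 1.19e-12). Vtn, encoding vitronectin with the same activity, was called lower at E10.5 (-2.08, SE 0.26, adjusted p = 3.53e-08) and was higher in old adults (0.93, SE 0.26, adjusted p = 0.0236). Cd59a, the membrane inhibitor of the terminal complex, was lower by less than the study's limit (-1.11 at E10.5, SE 0.14, adjusted p = 7.53e-08, and -1.04 at E19.5). In all, 7 of the 36 genes passed 0.05 between the adult ages, 4 higher (C1s1, Colec11, Itgb2 and Vtn) and 3 lower (Fcna, Colec10 and C5ar1), beside 3.83% and 3.13% of all probe sets, or 6.96% in either direction. In a fit of the 6 adult arrays alone this count was 0, and with the hybridization control level as a covariate it was 2 (C1s1 and Masp2).

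**Figure D4:**
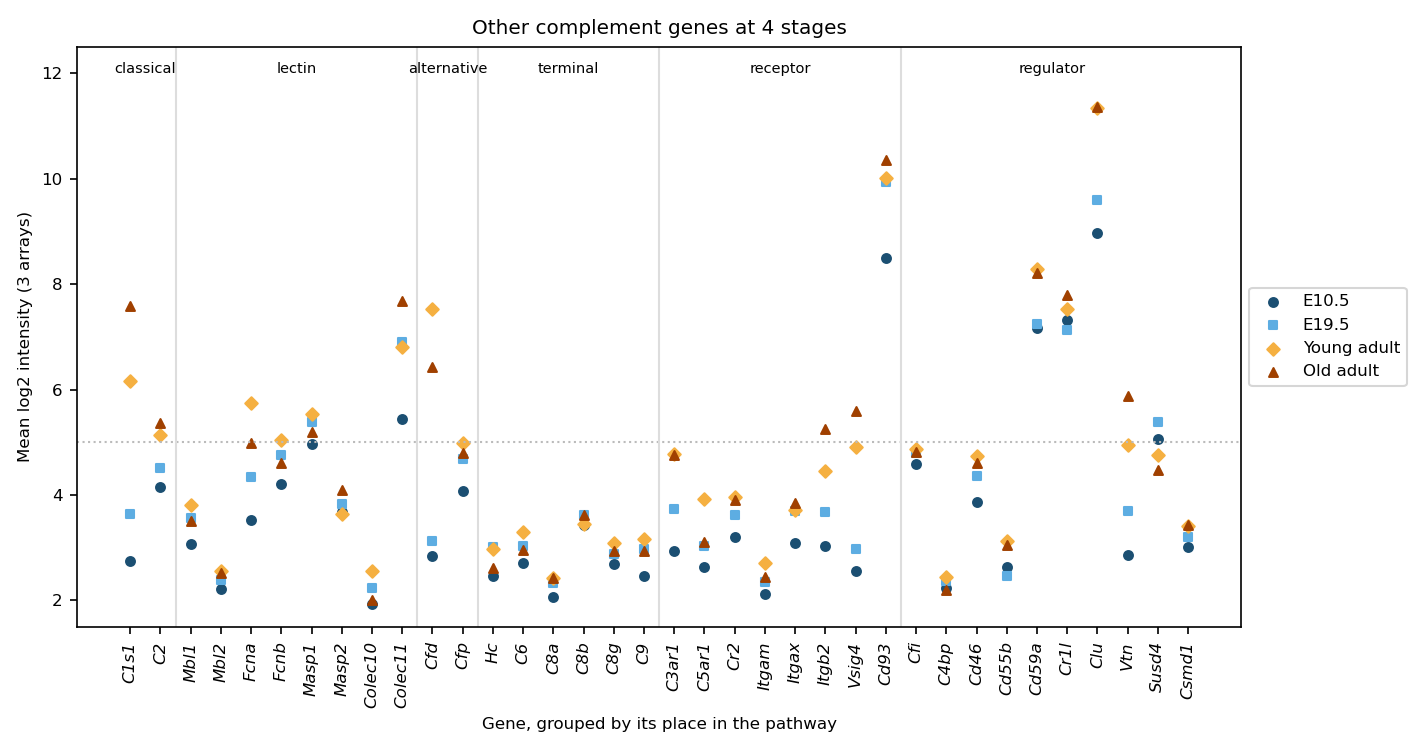
Mean level (log2 intensity, 3 arrays, y axis) of 36 other complement genes (x axis, grouped by pathway) for 4 groups (E10.5, E19.5, young adult, old adult), dotted line at 5. Cfd and C1s1 have their adult means far above both embryonic means, and the 6 terminal genes stay under 5.

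Markers of macrophages moved with the members between these stages, and those of other cell types that make complement did so in part. The counts that follow stand beside 2.10% of all probe sets called lower and 4.43% called higher at E10.5 than in young adult, and 0.634% and 0.818% at E19.5. At an adjusted p under 0.05, the shares were 35.9% lower and 27.1% higher at E10.5, and 13.6% and 15.5% at E19.5. Of 15 macrophage markers, 10 were called lower at E10.5 than in young adult and 15 were past 0.05 in that direction, and at E19.5 4 were called lower and 13 were past 0.05. Their summed linear intensity on an array was 239 to 251 at E10.5 and 779 to 834 at E19.5, against 2052 to 2835 for young and 2318 to 3285 for old adults. Cd68, Aif1 and Fcgr1 were under 5 in every group. The mean log2 level of the list was 3.70 at E10.5, then 4.98 at E19.5 and 6.40 for young adults, where C1qa read 3.34, 4.36 and 7.69. Unlike C1qa, the list rose nearly as much before E19.5 as after it. The part of macrophage RNA in the result was not tested.

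**Figure D5:**
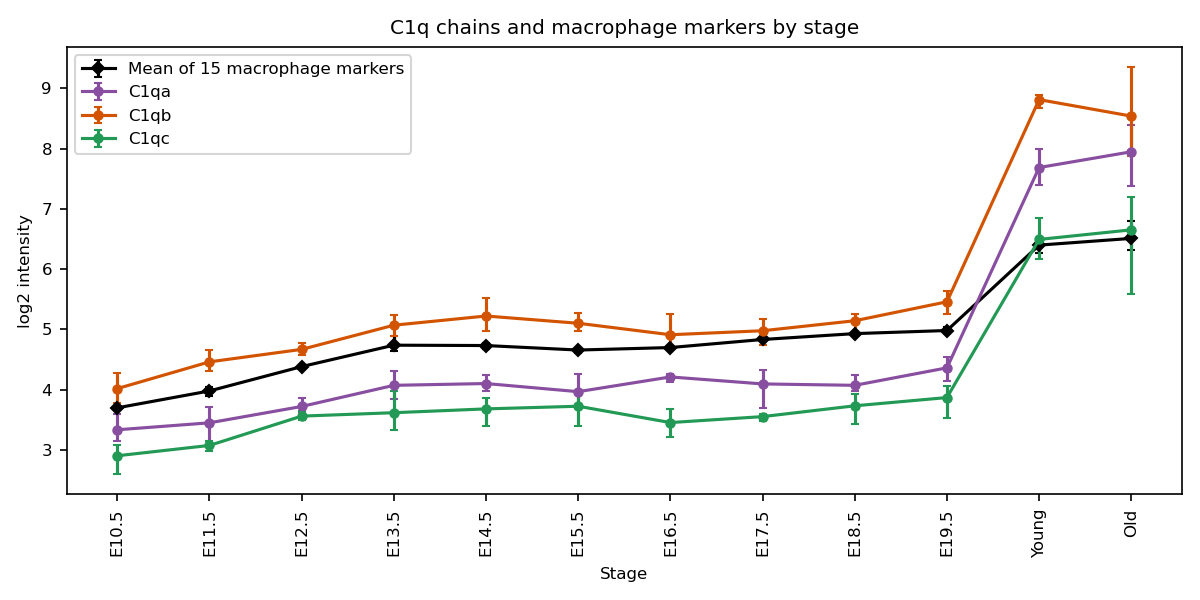
Stage means of the 3 C1q chains and the mean of 15 macrophage markers (log2 intensity, y axis) over 12 stages (x axis), bars from the lowest to the highest of 3 arrays. All 4 lines lie higher at E19.5 than at E10.5, and higher again in both adult groups.

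The 12 fibroblast markers were mixed in direction. At E10.5, 6 were called lower than in young adult, and 8 were lower and 2 higher past 0.05. At E19.5, 3 were called lower (Lum, Gsn and Pi16) and 1 higher (Col1a1, a collagen gene), and 5 were lower and 4 higher past 0.05. Their sum was 3605 to 3929 at E10.5, 12401 to 14790 at E19.5, 18341 to 25488 on the young and 13709 to 23622 on the old adult arrays, and none was under 5 throughout. Of 12 genes of the interferon gamma response, a known inducer of C3, C4 and Serping1, 6 were called lower at E10.5 and 4 at E19.5. Their sum was 210 to 226, 330 to 341, 1197 to 2634 and 1465 to 4643 in the same groups, with Cxcl9, Cxcl10 and Tap1 under 5 throughout. Of 6 adipocyte markers, 3 were called lower at E10.5 and 1 at E19.5, and Cidec, Lep and Ucp1 were under 5 throughout. Their sum was 39.6 to 43.7, 3769 to 4615, 4948 to 5580 and 5735 to 7222, but from E11.5 to E19.5 Fabp4, which endothelial cells make as well, was the 1 marker above 5, with a mean of 12.03 at E19.5 and 12.31 in young adults. Unlike the members, this sum rose mainly before birth. Between the adult ages 3 interferon response genes were higher in old adults and 2 fibroblast markers lower at an adjusted p under 0.05. The part of these cells and of this response in the levels of the members was not tested.

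Of 8 hepatocyte markers, 6 were under 5 in every group (Alb, Apoa1, Apob, Ttr, Afp and Fgb), while the highest stage mean was 6.07 for Serpina1b and 5.03 for Ahsg. The sum of the 8 was 70.9 to 78.4 at E10.5, 92.9 to 122.5 at E19.5, 143 to 171 on the young and 173 to 193 on the old adult arrays, with 2 called lower and 6 lower past 0.05 at E10.5, and 1 and 3 at E19.5. The old adult rise of Serpina1b (log2 difference 1.22, SE 0.28, adjusted p = 0.0064) was the single one past 0.05 between the adult ages. Of 6 endothelial markers 1 was called lower and 5 were lower past 0.05 at E10.5 than in young adult, and 0 and 3 at E19.5. Their sum was 623 to 895 at E10.5, 640 to 1090 at E19.5, 1175 to 1530 on the young and 1900 to 2980 on the old adult arrays. In old adults 3 were higher past 0.05, beside 3.83% of all probe sets. The part of these cells in the levels of the members was not tested. Of 6 erythroid markers 4 were called higher at E10.5 than in young adult.

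Genes with the most similar course were found by the Pearson correlation of the 12 stage means over 18440 probe sets with a group mean above 5. These correlations share their arrays and are given as a description. For C1qa they included Ccl9, a chemokine gene (r = 0.996), and Mapt (0.995), and for C3 they were Cp, which encodes ceruloplasmin (0.998), Pdlim4 (0.996) and Tmem140 (0.996). C4b was followed most closely by Vsig4 (0.997), Ndrg1 (0.997) and 2310002L09Rik (0.996), and those of Serping1 included Rarres2, the chemerin gene (0.993), and Gsn, the gelsolin gene (0.992). On its brightest probe set Cd55 had no such close neighbour, with Prrx1 (0.932), Iigp1 (0.891) and Htra1 (0.890).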

How the data were processed

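Gene expression was read from Affymetrix Mouse430 2.0 arrays. Per the labels and the methods, the authors deposited log2 intensities computed with RMA, which removes background, brings all arrays to 1 distribution by quantiles and sums up the probes, and the submitters' processing notes name Affymetrix Expression Console and Partek 6.6. These values were used as deposited. Groups follow the sample labels, and columns were matched to arrays by the sample name in each description. The methods call the 3 samples of a stage biological replicates, and most groups mix the sexes. In the main stage comparisons p-values rest on the spread within groups, pooled over all 12 groups, not on that of the compared groups alone. The wording of the titles differs for the later arrays, starting with E16.5 female, and what this stands for was not given in the sources used here.

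Stage means were compared with limma 3.58.1 in R 4.3.3: 1 model of 12 groups over 36 arrays and all 45101 probe sets, moderated variances and Benjamini-Hochberg adjustment over all probe sets within a comparison. The slope used the 30 embryonic arrays, and the sex comparison 9 male and female pairs with stage as a block. Multiple probe sets of a gene were represented by the one with the highest mean. List genes were matched by gene ID, since the annotation alters some symbols. Precision is limited by 3 arrays a group. The fit was tested on simulated data. The microRNA arrays of the study were not analysed here.

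The members and lists were chosen with earlier results of these data known. Named are all members, the complement genes of the lists that were called against young adult or passed 0.05 between the adult ages, and the 3 genes most like C1qa, C3, C4b, Serping1 and Cd55, except for an item that is not reported here. C2, Masp1, Masp2, Cfp, Cd59a and the terminal genes were named in addition, after their values were seen. Alternatives were quantile renormalization, median centring, the place of the expression filter, a log2 fold limit of 1, the mean of all probe sets of a gene, an intensity trend, array quality weights, a fit of the compared groups alone, sex label as a block, the hybridization control level as a covariate and leaving out each array. Median centring shifted arrays by -0.32 to 0.31. Leaving out both mixed-sex adult arrays or 1 adult pair was chosen after seeing the data.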

Additional observations from a re-analysis of the deposited data

Results flagged for a closer look

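The sex difference of C3 differed between mature and embryonic hearts by -1.1225 log2 units (male minus female, mature minus embryonic, limma interaction). The level was lower in the male than in the female array by 0.69 in young and by 1.52 in old adults, and the female array was the higher in 2 of 2 mature pairs. No explanation was tested, and the sex label of an array is carried by 1 array in each stage.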

How the results depend on the processing

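The 6 members called against young adult at E10.5 and E19.5 were called without any single array in turn, and in 11 of 12 other settings each. The exceptions were C4b at E10.5 with the hybridization control covariate and C3 at E19.5 in the fit of the compared groups alone. Sex label as a replicate block left these counts at 6 and gave a postnatal count of 6. Between old and young adult, the count of 1 member (C3) was 0 after quantile renormalization, in the fit of the compared groups alone and without both mixed-sex adult arrays, and 0 to 2 with single arrays left out. Between E10.5 and E19.5, the count of 1 was 2 at a log2 fold limit of 1, 0 in the fit of the compared groups and 0 with the covariate. The postnatal count was 3 to 6 with single arrays left out.

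The single adjacent step was 0 with the expression filter before the fit and with the mean of all probe sets, 2 with the block and with the covariate, 12 with array quality weights and 0 to 3 with single arrays left out. The sex interaction count of 1 was 0 after median centring, with the covariate and without the old adult pair, 2 without the young adult pair and 0 to 2 with single arrays left out. Of the other complement genes, the E10.5 count of 6 was 2 with the covariate. The E19.5 count of 2 was 6 at a log2 fold limit of 1 and 0 in the fit of the compared groups. The count of 7 between the adult ages was 1 with array weights, 0 in the fit of the compared groups, 2 with the covariate, 4 without both mixed-sex arrays, and 3 to 6 with single arrays left out (3 without the old male array).

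Differences between old and young adult that changed sign had passed no limit: C1qc was -0.0295 after quantile renormalization, and with the covariate C1qc was -0.0715, Serping1 -0.0247 and Cd55 -0.17. Cd55 was -0.11 after median centring, and C1qb 0.0292 as the mean of its probe sets. With single arrays left out, C1qc ranged from -0.11 to 0.69, C1qb from -0.68 to 0.0533, Serping1 from -0.17 to 0.57 and Cd55 from -0.0386 to 0.10. The causes were not tested. Means under 5 are near the low end of the scale, where differences are understated.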
